A study of Homo sapiens with 4 samples.

Results

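Chaperones are the proteins that fold other proteins and keep them from clumping, and the unfolded protein response is the programme by which the endoplasmic reticulum (ER) adjusts its share of them. A set of 46 such genes was followed in cells that lose the ubiquitin ligase MIB1, listed by name for the known roles of their products. The list does not use a measured value, though it was drawn up with earlier results of these data known. Of the 46 genes, 16 act in the cytosol, 22 in the ER or in its signaling, and 8 in mitochondria. The deposited table lists 58302 genes, of which 16181 had enough reads to be tested, and all 46 members were among them.

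RNA-seq was performed on 4 libraries from MIB1-iKO NCI-H838 cells at day 3. NCI-H838 is an established human line of non-small-cell lung cancer. All 4 libraries carry the same kind of insert, a piggyBac construct with a guide RNA against MIB1, a puromycin resistance gene and Cas9 under the control of doxycycline (dox). The no dox group (2 libraries) received no dox, and the dox group (2 libraries) received dox, given as 0.5 μg/mL in the methods of the study. The cells were grown from single-cell clones, and the labels name neither the clone nor the guide. No group received dox without the construct, so the loss of MIB1, the induction of Cas9 and dox itself cannot be told apart. The study calls the libraries of a condition biological replicates. Neither the labels nor the methods say whether they were separate cultures, and p-values measure the spread between these libraries.

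The libraries held between 15943025 and 24398411 reads over genes, fewer in both dox libraries. MIB1 was read 598 and 588 times without dox and 90 and 59 times with it, a log2 fold change of -2.58 ± 0.23 (SE) with an adjusted p of 0.000375 in limma. Of the epithelial markers, KRT8, KRT18, EPCAM and CDH1 were read in every library and KRT19 had 0 reads in all 4. Among the markers of other cell types reported here, PTPRC had 0 reads throughout, 6 had at most 10 reads in any library, and COL1A1 had more, though it stayed under 1 RPKM. RPKM, the deposited unit for levels, is a read count divided by gene model length and by depth, and can be compared between genes.

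Heat and misfolded protein in the cytosol act through HSF1, a transcription factor that binds heat shock elements upstream of HSP70, HSP90 and HSP40 genes. Inside the ER, a load of unfolded protein is sensed by IRE1 (the product of ERN1), ATF6 and PERK. IRE1 splices the XBP1 mRNA and ATF6 is cut free from the membrane, and both products then drive ER chaperone genes through ER stress response elements, while PERK slows translation and acts through ATF4. Mitochondria hold a separate folding machinery of chaperonin, HSP70 and HSP90 relatives and a set of proteases. Counts per gene do not show the splicing of XBP1, the cutting of ATF6 or the activity of HSF1, so the transcripts described here are a readout of output and not of these steps.

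The letters these factors read can be seen upstream of the members. What is called the heat shock element pair here is a pair of GAA units on opposite strands. It was searched as GAANNTTC or TTCNNGAA, each of which reads the same on both strands. It was present in 11 of the 15 cytosolic members with a promoter in RefSeq (GRCh38.p14; 250 bases before to 50 after the start), and in 16.2% of all genes with a promoter there. The upstream 250 bases of 3 members that stand for the HSP70, HSP40 and HSP90 families follow, with the pairs in capitals. HSPA1A lies at chr6:31815293-31815542 (plus strand), DNAJB1 at chr19:14518398-14518647 (minus strand) and HSP90AA1 at chr14:102087045-102087294 (minus strand).
HSPA1A: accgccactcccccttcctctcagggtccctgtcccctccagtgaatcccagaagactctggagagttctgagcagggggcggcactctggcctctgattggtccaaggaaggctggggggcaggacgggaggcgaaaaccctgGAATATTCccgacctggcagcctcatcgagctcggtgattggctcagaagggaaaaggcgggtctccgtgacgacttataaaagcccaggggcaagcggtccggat
DNAJB1: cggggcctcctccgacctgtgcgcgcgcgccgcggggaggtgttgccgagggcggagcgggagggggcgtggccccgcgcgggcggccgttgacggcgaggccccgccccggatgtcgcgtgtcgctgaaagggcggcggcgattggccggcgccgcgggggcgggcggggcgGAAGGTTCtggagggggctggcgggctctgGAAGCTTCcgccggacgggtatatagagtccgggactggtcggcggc
HSP90AA1: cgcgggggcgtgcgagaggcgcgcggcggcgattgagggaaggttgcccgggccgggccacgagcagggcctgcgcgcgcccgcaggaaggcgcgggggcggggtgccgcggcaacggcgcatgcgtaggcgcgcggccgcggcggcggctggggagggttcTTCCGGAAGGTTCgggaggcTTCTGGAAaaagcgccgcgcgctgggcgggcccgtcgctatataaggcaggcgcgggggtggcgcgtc

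HSPA8, the member with the smallest p, held the pair in 2 clusters, each of 2 overlapping matches. They are given with 8 bases on either side, minus strand, from chr11:123062346-123062374 (distal) and chr11:123062171-123062199 (proximal).
HSPA8 distal: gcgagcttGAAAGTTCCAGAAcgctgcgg
HSPA8 proximal: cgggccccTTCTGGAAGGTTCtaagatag

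The ER stress response element was searched on both strands as CCAAT, then 9 bases of any kind, then CCACG. It was found in 7 of 21 ER members with a promoter, in none of 15 cytosolic and none of 6 mitochondrial members, and in 25 of all 27305 genes with a promoter (0.0916%). The heat shock element pair was in 1 of the 21 ER members (CANX) and in 2 of the 6 mitochondrial ones (HSPD1 and HSPA9). An element of each of the 7 ER members is shown on the strand that reads CCAAT first, with 5 bases on either side and both parts of the element in capitals. HSP90B1 held 2 matches, of which the one farther from the start is shown. The elements shown lie at chr9:125241386-125241414 (HSPA5, minus strand), chr12:103930211-103930239 (HSP90B1, plus strand), chr2:10812848-10812876 (PDIA6, minus strand), chr19:12938379-12938407 (CALR, minus strand), chr5:179698773-179698801 (CANX, plus strand), chr22:49918549-49918577 (CRELD2, minus strand) and chr22:28800598-28800626 (XBP1, minus strand).
HSPA5: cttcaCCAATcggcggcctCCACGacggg
HSP90B1: cctgaCCAATcggaaggagCCACGcttcg
PDIA6: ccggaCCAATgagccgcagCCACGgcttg
CALR: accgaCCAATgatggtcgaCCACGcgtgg
CANX: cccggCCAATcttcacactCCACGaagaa
CRELD2: atggcCCAATccgagttcgCCACGagagg
XBP1: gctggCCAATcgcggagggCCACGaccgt

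A further pair of motifs, each searched on both strands, was rarer among the members. TGACGTGG, the unfolded protein response element, was found upstream of HYOU1 alone among the 42 members with a promoter, and in 0.927% of all genes with a promoter. TGATGCAA, the amino acid response element read by ATF4, was found only upstream of HERPUD1, and in 1.08% of all genes with a promoter. A match is a run of letters and not a measured binding site.

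The members were among the well-read genes of the line. Levels ran from 0.345 RPKM (ERN1 in no dox replicate 2) to 585 RPKM (HSPA8 in no dox replicate 1), and 44 of 46 members had at least 100 reads in every library. By mean RPKM without dox the highest were HSPA8, the constitutive cytosolic HSP70, CCT5, a subunit of the TRiC chaperonin that folds actin and tubulin, HSP90AB1, the constitutive cytosolic HSP90, HSPE1, the mitochondrial co-chaperonin, and CALR, an ER lectin chaperone. The lowest were ERN1 and HSPA1B, an inducible HSP70 whose near-identical copy HSPA1A makes its level uncertain. Together the 46 genes took between 1.03% and 1.19% of all reads, of which the cytosolic members took 0.549% to 0.641%, the ER members 0.348% to 0.418% and the mitochondrial members 0.132% to 0.147%.

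**Figure D1:**
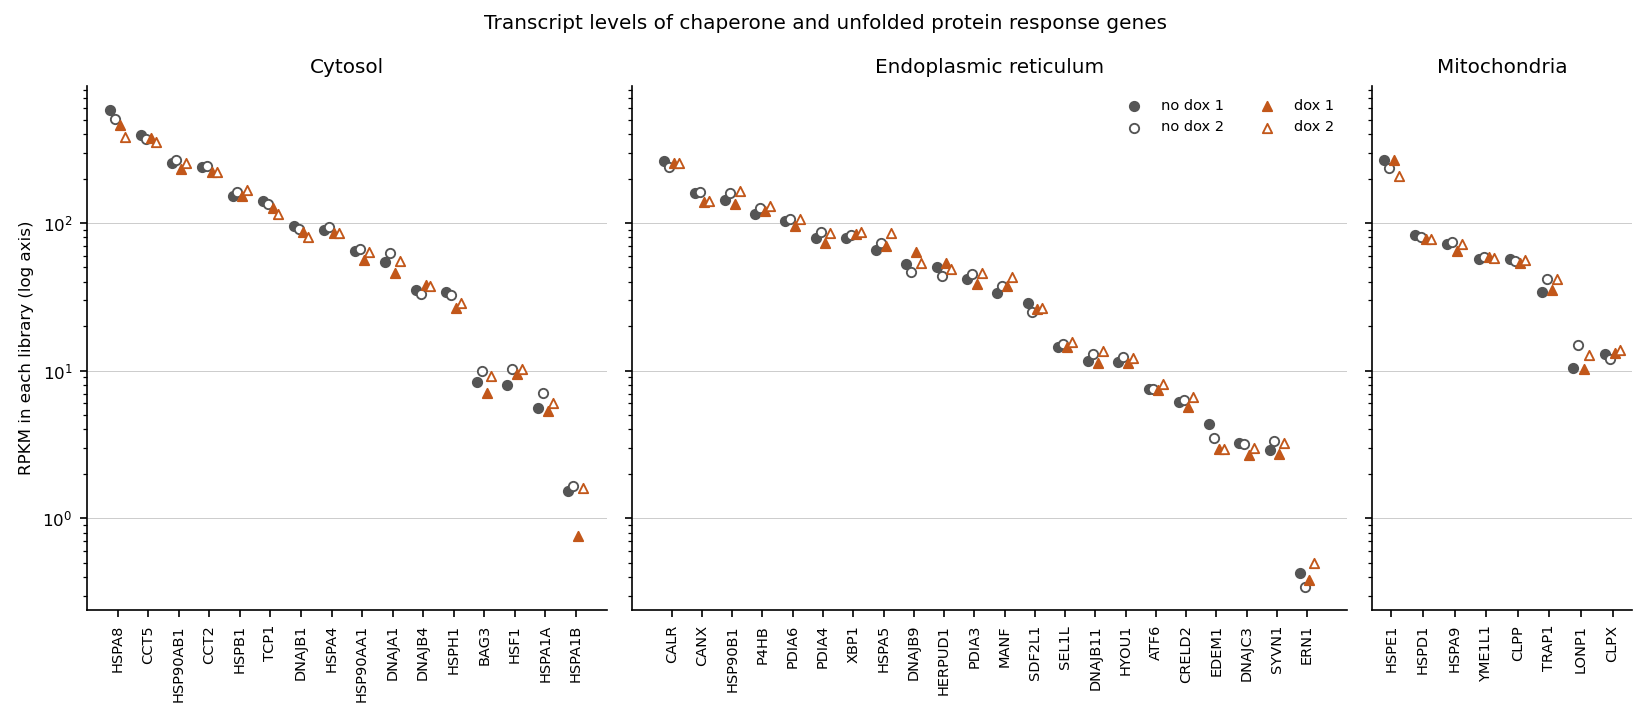
RPKM (log axis) of each of the 46 members in each library, by compartment and ordered by level. Circles are the no dox libraries and triangles the dox libraries (filled, replicate 1; open, replicate 2). The 4 marks of most genes lie close together against a range from 0.345 to 585 RPKM.

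No member was called in the comparison of dox with no dox. The call needed a 2-fold change and an adjusted p no larger than 0.05 in limma, which 0 of 46 members and 0.0371% of the genes tested (6 genes) passed. Without the fold minimum it was again 0 of 46 members, against 0.0680% of the genes tested. At an unadjusted p under 0.05 there were 4 members, 1 higher with dox (DNAJB9) and 3 lower (HSPA8, HSPH1 and EDEM1). The background at that level was 4.68% higher and 4.59% lower, 9.28% in all, and 4 of 46 is close to it. With 2 libraries a group, an exact permutation test of a single gene cannot give a two-sided p below 0.333.

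The intervals give the range of change that goes with the spread between these libraries. For 45 of 46 members the 95% interval of the log2 fold change lay within 2-fold in either direction, and for 43 within 1.5-fold, where the shares over all genes tested were 77.4% and 50.9%. HSPA1B was the exception at 2-fold, and HSPA1B, ERN1 and EDEM1 were the exceptions at 1.5-fold. The median SE was 0.12 for members and 0.18 over all genes tested, on the log2 scale.

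**Figure D2:**
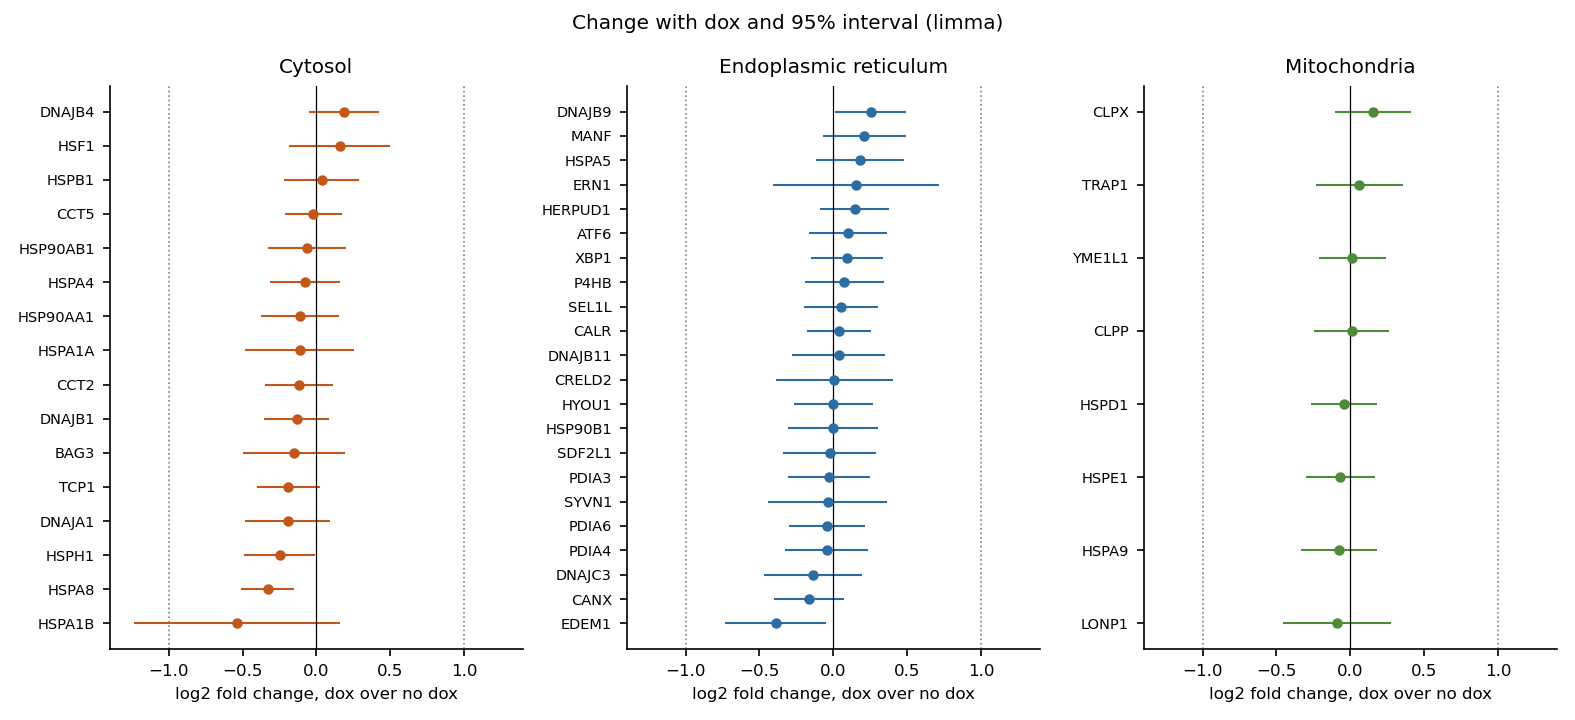
Log2 fold change (dox over no dox) of each member in limma, by compartment, with the 95% interval as a line. Dotted lines mark 2-fold in either direction. Only the interval of HSPA1B crosses one of them, and 4 intervals leave out 0 (HSPA8, HSPH1, DNAJB9 and EDEM1).

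Groups that do not overlap, both dox libraries above or both below the no dox libraries in normalised log2 CPM (reads scaled to library size, on a log2 scale), were found for 12 of 46 members, 6 higher and 6 lower. Among all genes tested the shares were 39.0% in either direction, 19.7% higher and 19.2% lower, and the members' 26.1% lies below the first of these. The difference of the group means was larger than both differences between replicates for 10 members, against 27.1% of the genes tested. These counts describe the 4 libraries and were not tested. Overlap is judged on this scale below unless RPKM is named.

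In the cytosol, 13 of 16 members had a log2 fold change below 0 and the median was -0.12, where the median of all genes tested was -0.00042 and 8101 of 16181 were below 0. Of the 13, 2 reached an unadjusted p under 0.05, and none passed the adjusted threshold. The HSP70 machinery held the lowest p of all members. HSPA8 measured 585 and 507 RPKM without dox and 459.9 and 382 RPKM with dox. Both dox libraries were below both no dox libraries, and the ratio of the mean RPKM with dox to that without dox was 0.772. The log2 fold change was -0.33 ± 0.08 (SE, n = 2 per group), with a 95% interval of -0.51 to -0.15 and an adjusted p of 0.228 in limma. It lay between -0.34 and -0.32 when each library was left out in turn, and its adjusted p lay between 0.190 and 0.629 in the 9 alternative settings other than the replicate term. HSPA8 alone took 0.152% and 0.141% of reads without dox and 0.119% and 0.110% with dox. Without it the other 15 cytosolic members took 0.466% and 0.4996% without dox and 0.430% and 0.481% with dox, and the groups overlapped. Reads of 17 listed HSPA8 pseudogenes came to at most 4.91% of the gene's own.

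The heat-inducible copies HSPA1A and HSPA1B were near the bottom of the list. HSPA1A measured 5.57 and 7.08 RPKM without dox and 5.36 and 6.02 with dox, and its groups overlapped. HSPA1B was read 91 times in each no dox library, against 29 and 73 times after dox. The low value was that of dox replicate 1 alone, since dox replicate 2 lay between the no dox libraries in normalised log2 CPM. Their coding sequences of 1923 bases differ at 4 positions, and 93.9% of 50-base windows are identical, so reads cannot be split between them with certainty. The summed reads were 416 and 476 without dox and 232 and 344 with dox, which gave a log2 fold change of -0.18 ± 0.17 with an adjusted p of 0.801 in limma. By the deposited values HSPA8 stood at 105 and 71.6 times the RPKM of HSPA1A without dox, and at 85.7 and 63.5 times with dox. How reads that match both copies were counted is not stated, and such reads may be missing from the counts. The levels of both copies, their sum and this ratio carry that doubt.

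The HSP110 genes, whose products reset HSP70 by nucleotide exchange, gave different sizes. HSPH1 measured 34.1 and 32.5 RPKM without dox and 26.8 and 28.9 with dox, with both dox libraries below. Its log2 fold change was -0.25 ± 0.11, with an adjusted p of 0.520 in limma, and lay between -0.35 and -0.14 with a library left out. HSPA4 measured 89.8 and 93.7 RPKM without dox and 85.6 and 85.6 with dox, and its log2 fold change of -0.08 ± 0.11 was smaller than its error.

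Among the HSP40 partners, which hand clients to HSP70, DNAJB1 and DNAJB4 stood on opposite sides of 0. DNAJB1 was at 95.5 and 91.1 RPKM without dox and at 87.3 and 80.7 with dox. For DNAJB4 the values were 35.0 and 32.8 RPKM without dox and 38.2 and 37.4 with dox. Neither overlapped between groups, and the log2 fold changes were -0.13 ± 0.10 and 0.19 ± 0.11, with adjusted p of 0.739 and 0.650 in limma. DNAJA1 had a log2 fold change of -0.20 ± 0.13 and overlapping groups.

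The ratio of the cytosolic HSP90 genes varied little. HSP90AB1, the constitutive gene, was at 254 and 267 RPKM without dox and 232 and 254 with dox, and HSP90AA1, the stress-inducible gene, at 64.3 and 66.4 without dox and 55.9 and 63.8 with dox. HSP90AB1 thus lay between 3.96 and 4.15 times HSP90AA1 in all 4 libraries. The log2 fold changes were -0.06 ± 0.12 and -0.11 ± 0.12. BAG3, which links HSP70 to autophagy, was at -0.15 ± 0.16, and HSPB1, a small heat shock protein, at 0.04 ± 0.12.

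The TRiC chaperonin was represented by CCT2, CCT5 and TCP1. TCP1, the alpha subunit, measured 142 and 135 RPKM without dox and 127 and 115 with dox, with no overlap between groups, a log2 fold change of -0.19 ± 0.10 and an adjusted p of 0.596 in limma. CCT2 was at -0.12 ± 0.11 and CCT5 at -0.02 ± 0.09, and the groups of both overlapped in normalised log2 CPM. In RPKM both dox libraries of CCT2 were lower. The ratio of CCT5 to TCP1 was 2.78 and 2.76 without dox and 2.97 and 3.07 with dox. HSF1, the transcription factor above these genes, measured 7.95 and 10.2 RPKM without dox and 9.55 and 10.2 with dox, which gave a log2 fold change of 0.16 ± 0.16 with overlapping groups.

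The cytosolic members were also split by their promoters. The 11 with a heat shock element pair had a median log2 fold change of -0.12, with 9 of 11 below 0, and the 4 without it had a median of -0.11, with 4 of 4 below 0. These groups are small and were not tested.

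The lower values of the cytosolic members rested on which libraries were compared. The median of the 16 members' log2 CPM relative to their own means was -0.03 and 0.14 in no dox replicates 1 and 2, and -0.16 and 0.06 in dox replicates 1 and 2. The dox libraries therefore did not both lie below both no dox libraries. Without dox replicate 1 the median log2 fold change was 0.02, with 7 of 16 members below 0, and without no dox replicate 2 it was -0.03, with 9 below. Without no dox replicate 1 it was -0.21, with 15 below, and without dox replicate 2 it was -0.22, with 14 below.

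In the ER, 13 of 22 members had a log2 fold change above 0 and 9 below, and the median was 0.02. DNAJB9, an ER HSP40 that IRE1 signaling through XBP1 induces, measured 53.1 and 46.4 RPKM without dox and 63.2 and 53.9 with dox. Both dox libraries were above, though dox replicate 2 stood only slightly over no dox replicate 1. DNAJB9 had a log2 fold change of 0.25 ± 0.11, with a 95% interval of 0.01 to 0.49 and an adjusted p of 0.517 in limma, and it lay between 0.18 and 0.33 with a library left out. HSPA5 (BiP), the ER HSP70 and the usual marker of the unfolded protein response, measured 65.7 and 73.3 RPKM without dox and 70.0 and 85.4 with dox. Its groups overlapped, since dox replicate 1 lay between the no dox libraries. The log2 fold change was 0.18 ± 0.14, with a 95% interval of -0.12 to 0.48 and an adjusted p of 0.737 in limma, and it was -0.04 without dox replicate 2.

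The genes that work with BiP had values on both sides of 0. MANF, a small ER-stress-induced protein, measured 33.8 and 37.5 RPKM without dox and 37.5 and 43.3 with dox, which gave a log2 fold change of 0.21 ± 0.13 with an adjusted p of 0.669 in limma. In normalised log2 CPM its groups did not overlap, though in RPKM the highest no dox and the lowest dox value were nearly equal. CRELD2, induced alongside MANF, was at 0.01 ± 0.18. Of the BiP co-factors, DNAJB11 was at 0.04 ± 0.15, SDF2L1 at -0.02 ± 0.15, HYOU1, the ER HSP110, at 0.00 ± 0.12, and DNAJC3 at -0.14 ± 0.16 with no overlap between groups. HSP90B1, the ER HSP90, measured 143 and 159 RPKM without dox and 134 and 166 with dox, so that the dox libraries enclosed the no dox ones, and its log2 fold change was -0.00 ± 0.14.

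The disulfide isomerases PDIA3, PDIA4, PDIA6 and P4HB, which form and reshuffle disulfide bonds, had log2 fold changes between -0.05 and 0.07, with SEs between 0.12 and 0.13. The 2 listed pseudogenes of PDIA3 had as much as 41.4% of its own number of reads, so its level is uncertain. The lectins CALR and CANX, which hold glycoproteins until they fold, differed from each other in value. CANX, in the membrane, was at 159 and 161 RPKM without dox and 139 and 141 with dox. In RPKM both dox libraries were lower, while in normalised log2 CPM the groups overlapped, and the log2 fold change was -0.17 ± 0.11 with an adjusted p of 0.694 in limma. CALR, in the lumen, was at 0.04 ± 0.10. The ratio of CALR to CANX was 1.64 and 1.497 without dox and 1.83 and 1.81 with dox.

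The genes of ER-associated degradation (ERAD), which moves misfolded proteins out to the proteasome, included the lowest value in the ER. EDEM1, a lectin that marks glycoproteins for disposal, measured 4.36 and 3.49 RPKM without dox and 2.93 and 2.97 with dox. Both dox libraries were below, and no dox replicate 1 stood highest. EDEM1 had a log2 fold change of -0.39 ± 0.16, with a 95% interval of -0.73 to -0.05 and an adjusted p of 0.463 in limma, and it ranged from -0.55 to -0.22 with a library left out. EDEM1 overlaps 1 antisense gene, and other members, such as HSF1, HSP90B1 and LONP1, also overlap genes on the other strand. The use of strand is not stated, so reads of such genes may be mixed with those of the members. HERPUD1, an ERAD organiser, measured 50.2 and 43.7 RPKM without dox and 53.2 and 48.6 with dox, with a log2 fold change of 0.15 ± 0.11. SEL1L and SYVN1, the core of the HRD1 ubiquitin ligase, were at 0.05 ± 0.12 and -0.04 ± 0.19.

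The genes of the sensors and their factors had small positive values. XBP1 measured 78.8 and 83.2 RPKM without dox and 83.7 and 86.6 with dox, which gave a log2 fold change of 0.09 ± 0.11, and ATF6 was at 0.10 ± 0.12. ERN1 was read only 98 and 74 times without dox and 57 and 89 times with dox, which gave a log2 fold change of 0.15 ± 0.26. With HSF1 all 4 lay above 0, and none had an unadjusted p under 0.05 in limma. HSF1 turned to -0.03 without no dox replicate 1 and ERN1 to -0.07 without dox replicate 2. XBP1 and ATF6 stayed above 0 whichever library was left out.

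The ER members split by promoter gave a median log2 fold change of 0.01 for the 7 with an ER stress response element (4 above 0, 3 below) and of 0.04 for the 14 without (9 above, 5 below). The ER median moved with single libraries as well. Leaving out each library in turn gave a median between -0.07 (without dox replicate 2) and 0.14 (without dox replicate 1), and the number of members below 0 ran from 4 to 17.

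**Figure D3:**
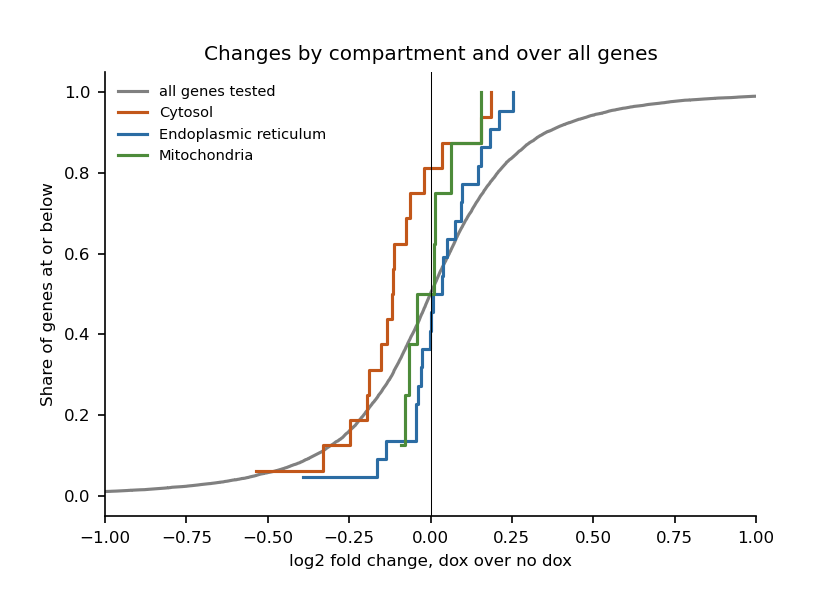
Share of genes (vertical) with a log2 fold change, dox over no dox, at or below the value on the horizontal axis, for the members of each compartment and for all 16181 genes tested. The cytosolic line lies to the left, with 13 of 16 members below 0, and the ER and mitochondrial lines cross 0 near the middle, with 9 of 22 and 4 of 8 below 0.

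In mitochondria, 4 of 8 members were above 0 and 4 below, and the median log2 fold change was -0.02. The chaperonin HSPD1 (HSP60) measured 83.2 and 80.4 RPKM without dox and 78.4 and 77.6 with dox, and its partner HSPE1 (HSP10) 268 and 237 without dox and 267 and 209.6 with dox. Their log2 fold changes were -0.04 ± 0.11 and -0.07 ± 0.11, both with overlapping groups in normalised log2 CPM. In RPKM both dox libraries of HSPD1 were lower. The genes lie head to head on chromosome 2 and overlap on opposite strands, and pseudogene reads came to as much as 28.3% of HSPD1's and 29.5% of HSPE1's own, so both levels carry that doubt. HSPA9, the mitochondrial HSP70, was at -0.08 ± 0.12 and TRAP1, the mitochondrial HSP90, at 0.06 ± 0.14. The RPKM of HSPA5 over that of HSPA9 was 0.906 and 0.986 without dox and 1.08 and 1.18 with dox.

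The mitochondrial proteases had log2 fold changes between -0.09 and 0.16. CLPX, which unfolds substrates for the CLPP protease, measured 12.99 and 12.1 RPKM without dox and 13.3 and 13.9 with dox. It was the only mitochondrial member whose groups did not overlap in normalised log2 CPM, and its log2 fold change was 0.16 ± 0.12 with an adjusted p of 0.738 in limma. CLPP itself was at 0.01 ± 0.12 and YME1L1, an inner membrane protease, at 0.01 ± 0.11. LONP1, the matrix protease, measured 10.4 and 14.9 RPKM without dox and 10.3 and 12.7 with dox. Its replicates without dox differed by more than its groups did, and the log2 fold change was -0.09 ± 0.17.

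Most members differed between replicates in the same direction in both groups. In normalised log2 CPM, replicate 2 was above replicate 1 in both groups for 35 of 46 members (76.1%), and for 31.8% of all genes tested. In the dox group it was so for 43 of 46 members and in the no dox group for 35 of 46. The median difference was 0.21 between the dox replicates and 0.15 between the no dox replicates, both larger than the median log2 fold change of any of the 3 compartments. Replicate 1 was the higher in both groups for DNAJB9, HERPUD1 and HSPE1. The labels do not say what a replicate number stands for.

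**Figure D4:**
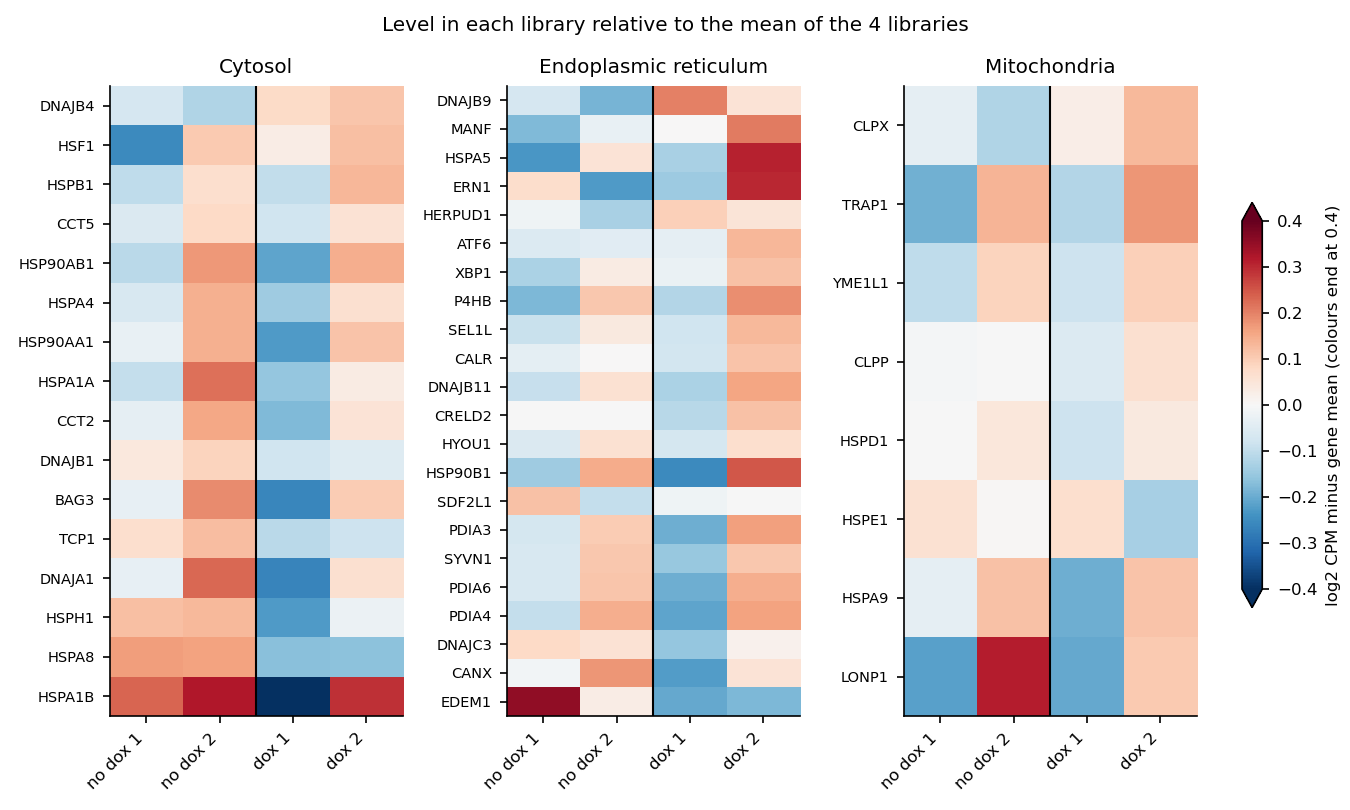
Log2 CPM of each member in each library minus the gene's mean over the 4 libraries, by compartment and ordered by log2 fold change (red above, blue below, colours ending at 0.4). Replicate 2 is the redder column of each group for most genes, and HSPA8 is the row in which both no dox libraries are red and both dox libraries blue to about the same depth.

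**Figure D5:**
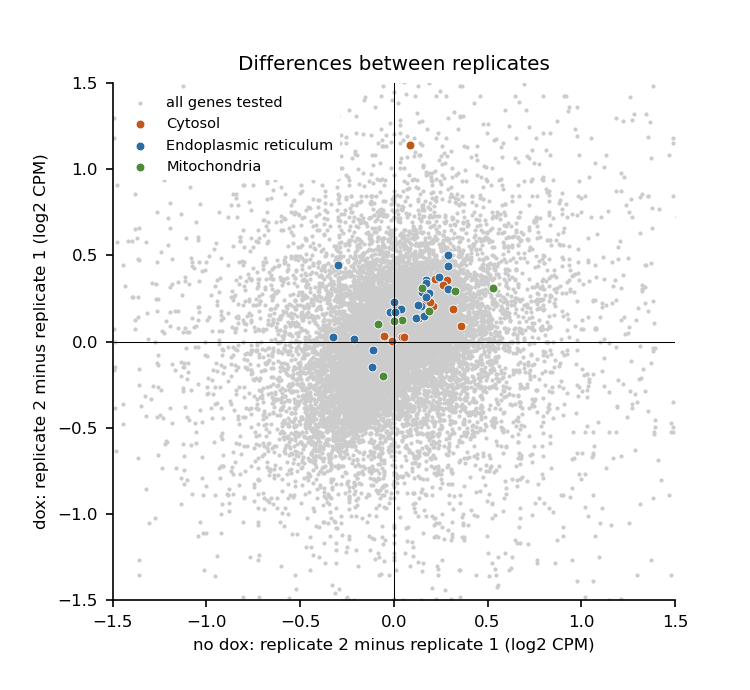
Difference between replicates (replicate 2 minus replicate 1, log2 CPM) without dox (horizontal) and with dox (vertical), for the members by compartment and for all genes tested in grey. Grey points beyond 1.5 or under the key are not seen. Of 46 members, 35 lie to the upper right, where replicate 2 was above replicate 1 in both groups.

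In wider lists of the same machinery, no gene passed the adjusted threshold in limma. Of 40 other cytosolic chaperones and co-chaperones, 25 were below 0 and 15 above, with a median log2 fold change of -0.05. The 3 at an unadjusted p under 0.05 in limma were all lower, FKBP5, an HSP90 co-chaperone, at -0.29, BAG2 at -0.25 and CACYBP at -0.24, the last 2 named after their values were seen. Over all genes tested the share at that level was 9.28%, of which 4.59% were lower. The lowest and highest values belonged to HSPA14 (-0.31), FKBP5, DNAJB5 (0.44) and PFDN2 (0.19), and CCT3, CCT4, CCT6A and CCT8 of the chaperonin were below 0 and CCT7 above (the chaperonin genes were also named after their values were seen).

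Of 40 other ER folding and ERAD genes, 23 were above 0 and 17 below, with a median of 0.05. NPLOC4 (-0.32) and UFD1 (-0.28, named after its value was seen), the cofactors that bring VCP to ubiquitylated ERAD clients, were the 2 at an unadjusted p under 0.05 in limma. The share over all genes tested was 9.28%. The other named genes were ATF6B, a relative of ATF6, at -0.41 ± 0.27, EIF2AK3, which encodes PERK, at 0.23 ± 0.20, and SIL1, the exchange factor of BiP, at 0.22 ± 0.14. Of 18 other mitochondrial chaperones and proteases, 10 were above 0 and 8 below, with a median of 0.02. CLPB, a disaggregase, was at 0.33 (adjusted p = 0.467 in limma), BCS1L at 0.17, TIMM44 at -0.21 and AFG3L2 at -0.20. ATF5, a transcription factor of the mitochondrial response that had too few reads for the naming rule and was named after its value was seen, gave 31 and 31 reads in the no dox libraries but 8 and 11 in the dox libraries. Its log2 fold change was -1.28 ± 0.44, with an adjusted p of 0.377 in limma. ATF5 and CLPB were the 2 of these 18 at an unadjusted p under 0.05 in limma, against 9.28% of all genes tested.

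The outputs of the PERK arm pointed in both directions. PPP1R15A, the phosphatase subunit that restarts translation, measured 7.52 and 7.01 RPKM without dox and 8.28 and 11.8 with dox, which gave a log2 fold change of 0.48 ± 0.18 with an adjusted p of 0.407 in limma. TRIB3, a pseudokinase induced by ATF4, measured 11.5 and 13.2 without dox and 8.52 and 9.56 with dox, which gave a log2 fold change of -0.42 ± 0.14 with an adjusted p of 0.363 in limma. Both sets of groups were apart, in opposite directions. DDIT3 (CHOP) was at 0.17 ± 0.15, ATF4 at -0.08 ± 0.16, ATF3 at -0.12 ± 0.15, CHAC1 at 0.03 ± 0.42 and SESN2 at 0.03 ± 0.21. ASNS had between 3 and 6 reads and was not tested.

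A list of 12 S-phase genes was read beside these. All 12 were below 0, with a median log2 fold change of -0.39, and none passed the adjusted threshold in limma. An unadjusted p under 0.05 in limma was reached by 8 of 12, all lower. Over all genes tested the shares were 4.59% lower and 9.28% in either direction. In DESeq2, MCM3 and GINS2 passed the adjusted threshold, with adjusted p of 0.0082 and 0.018. There 0.173% of all genes tested (28 genes) did so, and no S-phase gene passed in the other alternatives without the replicate block. MCM3, named after its value was seen, measured 20.5 and 21.9 RPKM without dox and 13.3 and 13.3 with dox. The part of these genes' shift in the values of the cytosolic members was not tested. In bulk RNA, fewer cells with a transcript and less of it per cell cannot be told apart.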

How the data were processed

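In the methods of the study, the authors set ribosomal reads aside, placed the remaining 50-base single-end reads on GRCh38 using GSNAP and counted them per gene over exons with HTSeqGenie. The deposited counts are whole reads per gene, not normalized. The deposited RPKM values are those counts scaled by gene model length and depth, with a further factor per sample by the authors. The methods name RefSeq gene models while the identifiers are Ensembl, and neither the kit nor the use of strand is stated for these samples, so overlapping genes, near copies and pseudogenes are uncertain.

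Symbols and positions were taken from GENCODE release 44, in which 57532 of 58302 identifiers had a symbol. Counts were filtered with filterByExpr defaults, a step that the study's methods do not state. Following those methods, they were then scaled to library size, brought to common quantiles, weighted with voom and fitted without covariates in limma 3.58.1 under R 4.3.3. Adjustment of p-values followed Benjamini and Hochberg over the 16181 genes tested. Intervals are 95% limma intervals with 14.29 moderated degrees of freedom and, like all p-values here, cover the spread between these libraries. RPKM served for levels. As a guide to detection, 3 reads amounted to 0.123 to 0.188 CPM across the libraries, and no count was raised to this floor. It covers counting error only, since reads amplified by PCR are not independent molecules. Simulated counts were used to check the code of the fits. Their changes were larger than that of any member, so they say nothing of detection at the sizes reported here.

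The genes named are the 46 members, MIB1, the 8 PERK outputs and the 2 highest and 2 lowest of each wider list with a mean count of at least 50. The cell type markers are named as the check of the labels, and other genes of the wider and S-phase lists were named after their values were seen. The members and all lists were chosen with earlier results of these data known. The promoters shown were chosen after the values were seen. A marker on the lists is not reported here. Alternatives were edgeR 4.0.16, DESeq2 1.42.0, voom with TMM or library size alone, other filters, log2(RPKM + 0.1) and log2(RPKM + 1) in limma, thinning to the smallest library, a replicate block, other thresholds, and each library left out in turn for fold changes only. Promoter windows of RefSeq (GRCh38.p14) were matched by symbol for 42 of 46 members.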

Additional observations from a re-analysis of the deposited data

How the results depend on the processing

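No member was called at 2-fold in any alternative setting with a test. The genes called over the whole table numbered 6, and 11 at an adjusted p of at most 0.05 with no fold minimum. They numbered 0 with no filter beyond 1 read and on either RPKM scale, where MIB1 itself was not called. It had a log2 fold change of -2.58 (adjusted p = 0.613) with no filter, -2.33 (adjusted p = 0.108) on log2(RPKM + 0.1) and -1.34 (adjusted p = 0.0962) on log2(RPKM + 1) in limma. Members at an unadjusted p under 0.05 numbered 4 (9.28% of all genes tested), against 2 in edgeR (9.07%), DESeq2 (5.599%) and voom with TMM (9.05%) or library size (7.72%), and 1 on the RPKM scales (8.91% and 8.89%). Members whose groups do not overlap numbered 12 (39.0% of all genes tested). They numbered 14 in edgeR (38.3%), DESeq2 (38.4%) and voom with TMM (38.3%), and 11 with library size (36.2%). On either RPKM scale there were 16 (38.6%), and 10 when thinned to the smallest library (38.8%). With a library left out they numbered from 22 to 35, where the share of all genes was 65.1% to 72.6%. There 1 library stands against 2, so overlap is rarer by construction.

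Same-numbered replicates deviated together only weakly (r = 0.134 over 16181 genes). The labels do not say what the number stands for, and with 2 pairs a pairing can be neither shown nor set aside. With the replicate block, 78 genes were called and 1154 had an adjusted p of at most 0.05 (7.13%). The members at an unadjusted p under 0.05 then numbered 13, against 20.2% of all genes tested, and 7 had an adjusted p of at most 0.05 (HSPA8, HSPH1, TCP1, HSPA5, CANX, DNAJB9 and EDEM1), none at 2-fold. That of HSPA8 was 4.5e-08. The same threshold was met by 9 genes of the 3 wider lists, PPP1R15A and TRIB3 of the PERK outputs, 10 of 12 S-phase genes, and KRT8 and KRT18.

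The direction of 41 members held in every alternative with a test, and that of 5 members near 0 turned. HSP90B1 was at 0.0016 with no filter, and DNAJB11 at -0.00041 and -0.00014 on the RPKM scales with 0.1 and 1 added. HYOU1 was at -0.027 in edgeR, -0.021 in DESeq2, -0.026 with TMM, -0.013 with library size, -0.033 and -0.031 on the RPKM scales and -0.00052 with the block. CRELD2 was at -0.0075 in edgeR, -0.0020 in DESeq2, -0.0082 with TMM and -0.021 and -0.018 on the RPKM scales. CLPP was at -0.024 in edgeR, -0.018 in DESeq2, -0.025 with TMM, -0.013 with library size and -0.031 and -0.031 on the RPKM scales. The sign of 30 members turned without 1 of the libraries and that of 16 held. The cause was not tested. ERN1 and HSPA1B, the members under 100 reads in a library, had the widest SEs of the 46.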
